A study of Homo sapiens with 3 samples.

Results

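The YAP and TEAD genes described here are the transcriptional coactivators YAP1 and WWTR1 (which encodes TAZ), the DNA-binding factor TEAD1, and genes commonly used as readouts of their activity or as regulators of it: CTGF, CYR61, ANKRD1, AMOTL2, AJUBA and LATS2. They were chosen by name from a list of 10 symbols, of which 9 matched a row among the 58037 genes. The symbol AXL2P matched no row and is not analysed here. Their RNA was measured by poly(A) RNA sequencing in A375, an established human melanoma cell line, with 1 library per group. The cells had been kept for 24 h in serum-free DMEM (control), in serum-free medium conditioned by adipocytes differentiated from young donors' cells (YA), or in the same medium conditioned by adipocytes of old donors (OA). The series description gives 24 h, while the treatment protocol gives a range that begins there and ends later. All groups share the serum-free state, and each secretome group is 1 culture of 1 cell line.

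YAP1 and TAZ carry no DNA-binding domain of their own. When they reach the nucleus they bind TEAD factors on DNA and raise the transcription of genes for matrix, cytoskeleton and growth. The Hippo kinases, of which LATS1 and LATS2 are the last step, phosphorylate both coactivators and keep them in the cytoplasm, so that much of the control acts on the protein and is not seen in the level of the YAP1 or WWTR1 transcript. Several targets, among them LATS2 and AMOTL2, feed back on the pathway. In melanoma the pathway is known for its links with invasion and with cell contact and stiffness.

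The total count was between 18089008 in OA and 21448195 in control. Counts were divided by size factors, and a fold change was taken as the ratio of these normalised counts, with a 95% interval that covers counting error only. With 1 library per group no difference has a replicate check, no test of the conditions was possible, and an interval that leaves out 1 says that 2 libraries differ and not that 2 conditions do. A gene was called higher or lower at 1.2-fold, the cutoff of the study, on the log2 scale of normalised counts plus a pseudocount of 1, among 14413 genes whose normalised counts averaged 20 or more. All 9 genes passed that minimum.

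In YA against control, ANKRD1 was higher and WWTR1 lower, and the other 7 genes lay within 1.2-fold. That is 11.1% of the 9 genes in each direction, beside 17.4% of all genes tested that were higher and 16.4% that were lower. In OA against control TEAD1 was higher (11.1%, beside 21.1% of all genes), and WWTR1, CTGF, LATS2 and AJUBA were lower (44.4%, beside 21.5% of all genes). Between the secretomes ANKRD1, LATS2 and CTGF were higher in YA (33.3%, beside 23% of all genes), while TEAD1 and YAP1 were lower in YA (22.2%, beside 21.5%). These changes were small. None of the 9 genes reached 2-fold in any comparison. Over all genes tested few did, with 2.15% higher and 0.971% lower in YA against control. The shares were 2.86% and 3.71% for OA against control, and 4.43% and 3.04% for the secretomes. At such shares, 0 of 9 genes does not set them apart from all genes. The median log2 fold change of the 9 genes was 0.04 for YA and -0.16 for OA, each against control, and 0.15 between YA and OA. Over all genes tested it was -0.02, 0.01 and -0.01. The 3 comparisons share libraries in pairs and are not independent of each other.

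**Figure D1:**
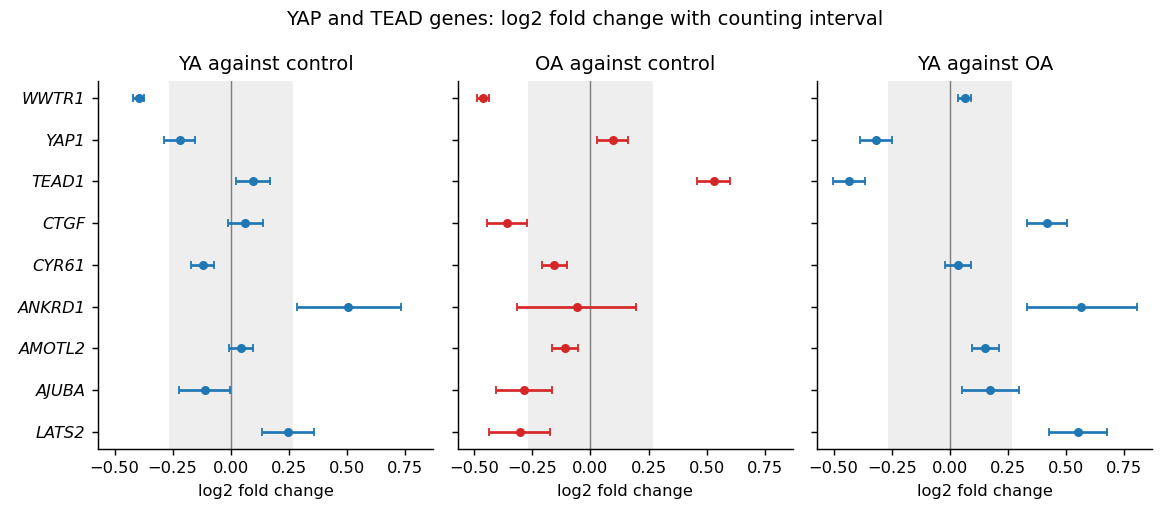
Log2 fold change of the 9 YAP and TEAD genes in 3 comparisons, with bars for the 95% counting interval and a grey band for changes under 1.2-fold; the left and right panels (blue) set YA against control and against OA, and the middle panel (red) sets OA against control. ANKRD1 stands to the right of the band in YA, TEAD1 to the right in OA, and WWTR1 to the left in both secretomes.

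WWTR1 was the most abundant of the genes and the only one past 1.2-fold lower after both secretomes. The gene (ENSG00000018408.14) lies on GRCh38 chromosome 3 at 149517235 to 149736714, on the minus strand. It had 30334 counts in the control library, 22976 in that of YA and 18500 in that of OA, which are 28584, 21715 and 20766 normalised counts. Control was the highest library, and YA and OA lay close together. The fold change was 0.760 in YA against control (interval 0.747–0.773) and 0.727 in OA against control (0.713–0.740), and YA was 1.05-fold of OA (1.03–1.07). Fewer cells with the transcript and less transcript per cell cannot be told apart in such a library. Exons of the antisense gene WWTR1-AS1 share 795 bases with those of WWTR1 and the use of strand in counting is not given in the sources used here, but WWTR1-AS1 had only 30, 20 and 8 counts.

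YAP1 was below control in YA like its paralogue WWTR1, though within 1.2-fold, but did not follow it in OA. YAP1 (ENSG00000137693.13; chromosome 11, 102110461 to 102233423, plus strand) had 3887 counts in the control library, 3326 in that of YA and 3488 in that of OA. Normalised, these are 3663, 3143 and 3915, so that YA was the lowest library and OA the highest. YAP1 was at a ratio of 0.858 in YA against control (interval 0.819–0.899), 1.07 in OA against control (1.02–1.12) and 0.803 in YA against OA (0.765–0.842). Within a library, and per kilobase of exon, WWTR1 exceeded YAP1 by 5.84-fold in control (interval 5.65–6.04), by 5.17-fold in YA (4.98–5.36) and by 3.97-fold in OA (3.83–4.12). The intervals of this ratio did not overlap between libraries, and OA had the lowest ratio.

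TEAD1 was the only one of the 9 genes to be past 1.2-fold higher in OA. This factor (ENSG00000187079.15; chromosome 11, 12674591 to 12944483, plus strand) had 2955 counts in the control library, 3148 in that of YA and 3583 in that of OA. The OA library had the fewest counts in all and yet the most for TEAD1, with 4022 normalised counts beside 2784 in control and 2975 in YA. The fold change was 1.44 in OA against control (interval 1.38–1.52) and 1.07 in YA against control (1.02–1.12). YA was 0.740-fold of OA (0.705–0.776).

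**Figure D2:**
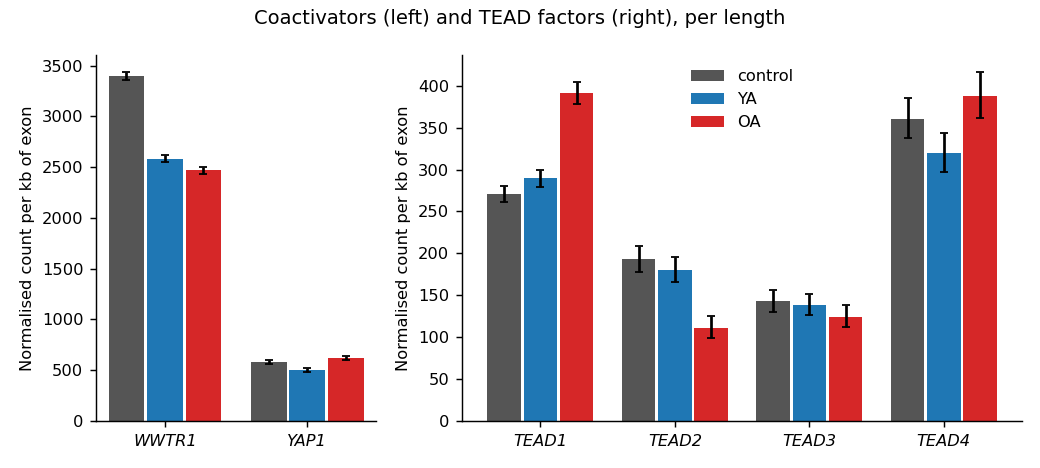
Normalised counts per kilobase of exon of the coactivators WWTR1 and YAP1 and of the 4 TEAD factors in control (grey), YA (blue) and OA (red), with exact 95% Poisson intervals. WWTR1 is highest in control at 3398 and lower in both secretomes (2581 and 2468), while in OA TEAD1 is at 391 and TEAD2 at 111.

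The other TEAD factors, which bind the same DNA element, moved apart in OA. TEAD2 had 611 counts in the control library, 568 in that of YA and 296 in that of OA, that is, 0.932-fold of control in YA (interval 0.830–1.05) and 0.577 in OA (0.501–0.664). TEAD3 had 462, 446 and 338 counts and reached 0.872-fold of control in OA (0.755–1.00). TEAD4 had 870, 769 and 786 counts, at 0.887-fold of control in YA (0.804–0.978) and 1.08 in OA (0.976–1.19). Per length, TEAD1 made up 28.0% of the TEAD transcripts in control, 31.2% in YA and 38.5% in OA. TEAD2 had 193, 180 and 111 normalised counts per kilobase in that order, and its share was 19.4% in YA and 11.0% in OA. TEAD4 had the largest share in control and YA (37.3% and 34.5%), and in OA its share of 38.2% was next to that of TEAD1.

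Vestigial-like proteins compete with YAP1 and TAZ for TEAD factors. VGLL4, the one that is best known as a repressor of TEAD, had 1629 counts in the control library, 1264 in that of YA and 941 in that of OA, with fold changes of 0.778 (interval 0.723–0.838) in YA and 0.688 (0.634–0.746) in OA. VGLL2 had 60, 25 and 13 counts and VGLL3 had 99, 56 and 73. VGLL1 had no count in any library. Of the 9 factors and cofactors with enough counts, WWTR1, YAP1 and TEAD1 included, 4 were at least 1.2-fold lower and 0 higher in YA, where 16.4% of all genes were lower and 17.4% higher. In OA 4 were lower and 1 higher, beside 21.5% and 21.1% of all genes. The 4 lower ones are 44.4% of the list in either secretome. Over all 9 factors and cofactors the median log2 fold change was -0.22 in YA and -0.20 in OA.

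**Figure D3:**
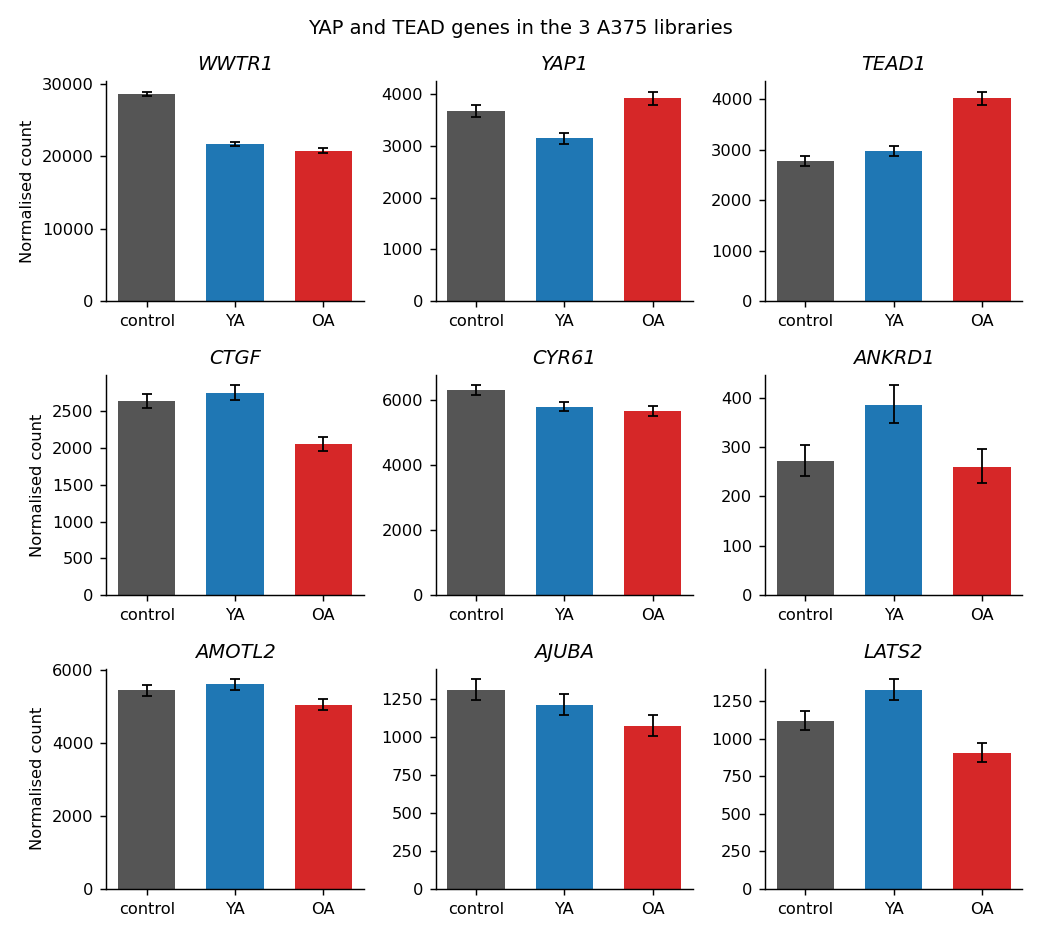
Normalised counts of each of the 9 genes in control, YA and OA, 1 bar per library, on linear axes from 0 with exact 95% Poisson intervals for counting error. CTGF, AJUBA and LATS2 are lowest in OA, ANKRD1 is highest in YA, and WWTR1 is highest in control.

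CTGF and CYR61 encode secreted matricellular proteins of the CCN family and are the most used readouts of YAP and TEAD activity. CTGF (ENSG00000118523.5; chromosome 6, 131948176 to 131951373, minus strand) had 2796 counts in the control library, 2909 in that of YA and 1833 in that of OA, or 2635, 2749 and 2058 normalised counts. Control and YA were alike within counting error, and OA was lower than both. Relative to control, CTGF was at 1.04 in YA (interval 0.990–1.10) and 0.781 in OA (0.736–0.829), and YA was 1.34-fold of OA (1.26–1.42).

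CYR61 differed less between libraries. It lies on chromosome 1 at 85580761 to 85583962, on the plus strand (ENSG00000142871.16). It had 6667 counts in the control library, 6113 in that of YA and 5025 in that of OA, which are 6282, 5777 and 5641 normalised counts. Both secretomes were slightly below control, at 0.920-fold in YA (interval 0.888–0.952) and 0.898-fold in OA (0.865–0.931). YA and OA did not differ beyond counting error (1.02-fold, 0.987–1.06). The ratio of CYR61 to CTGF per kilobase of exon stood at 2.27 in the control library (2.17–2.38), 2.00 in YA (1.92–2.09) and 2.61 in OA (2.48–2.76).

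ANKRD1, a nuclear ankyrin-repeat cofactor that is known from heart muscle, was the only one of the 9 genes to be past 1.2-fold higher in YA against control. It lies on chromosome 10 at 90912096 to 90921276, on the minus strand (ENSG00000148677.6). It had 288 counts in the control library, 408 in that of YA and 232 in that of OA, and 271, 386 and 260 after normalisation. YA stood above the other two libraries, which overlapped in their counting intervals. Relative to control it stood at 1.42 in YA (interval 1.22–1.66) and 0.960 in OA (0.804–1.14), and YA was 1.48-fold of OA (1.26–1.75). With the fewest counts of the 9 genes, ANKRD1 also had the widest intervals.

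Promoter windows from RefSeq on GRCh38.p14, from 250 bases before to 50 after a gene's start, were found for 7 of the 10 listed symbols. None was found for CYR61, TEAD1 or AXL2P. They were searched on both strands for the core that TEAD factors bind, GGAATG, for the AP-1 motif TGANTCA and for the CArG box of serum response factor. Of all 35116 windows of this length, 14.0% hold the TEAD core at least once and 0.128% hold it 3 or more times, 7.71% hold the AP-1 motif and 1.29% a CArG box. The window of CTGF held the TEAD core 3 times, with first bases at -169, -104 and -95 relative to the start. The window of ANKRD1 held it 2 times, at -220 and -128, with an AP-1 motif between them at -195. The match at -128 falls within the gene's span as given here. The stretches of these windows are shown because CTGF and ANKRD1 are direct target genes whose levels parted in the secretomes. They run 5′ to 3′ along the gene's own strand, and capitals mark the matches:

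CTGF, chr6:131951450-131951553, minus strand: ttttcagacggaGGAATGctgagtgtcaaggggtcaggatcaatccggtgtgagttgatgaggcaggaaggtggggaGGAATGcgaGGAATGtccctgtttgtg

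ANKRD1, chr10:90921198-90921319, minus strand: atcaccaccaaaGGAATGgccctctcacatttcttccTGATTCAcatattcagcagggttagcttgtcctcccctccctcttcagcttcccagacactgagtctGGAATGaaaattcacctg

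AMOTL2, AJUBA and YAP1 each had 1 match to the TEAD core upstream of a start, shown with their surroundings in the same way. For AMOTL2 the match is on the other strand and so reads as the reverse complement. For AMOTL2 and AJUBA it lies in 1 of 2 windows, the one that falls within the gene's span as given here:

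AMOTL2, chr3:134374499-134374528, minus strand: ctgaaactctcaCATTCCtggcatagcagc

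AJUBA, chr14:22976884-22976913, minus strand: gggaagttggctGGAATGaagccaaagcaa

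YAP1, chr11:102110273-102110302, plus strand: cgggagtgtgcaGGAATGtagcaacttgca

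The window of LATS2 held the core once, with its first base 10 bases after the start. In the 2 windows of WWTR1 none of the 3 motifs was found, and no CArG box was found in any of these windows. A match describes letters only. CTGF with 3 matches was lower in OA by 1.28-fold and WWTR1 with none by 1.38-fold, and a link between matches and change was not tested.

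**Figure D4:**
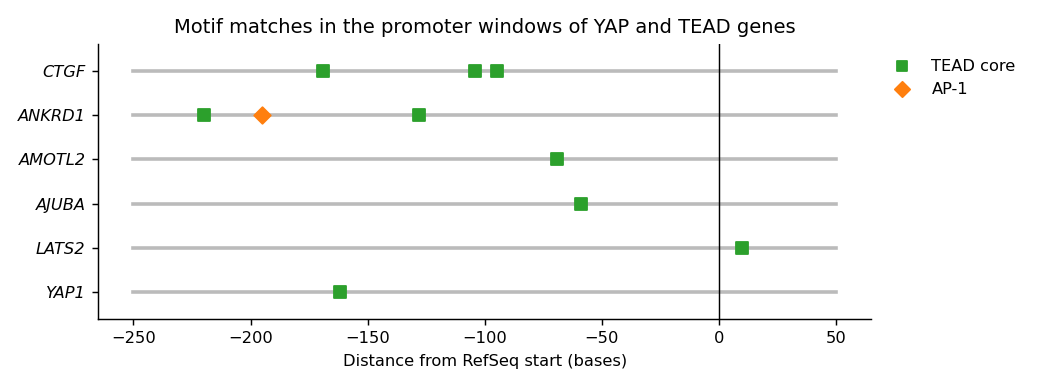
Matches to the TEAD core (green squares) and the AP-1 motif (orange diamond) in the RefSeq promoter windows that hold one, placed by the distance of the first base from the start, with grey lines for the window from 250 bases before to 50 after it. CTGF carries 3 TEAD cores from -169 to -95, and ANKRD1 carries 2.

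AMOTL2, AJUBA and LATS2 are both targets of the pathway and parts of its control. AMOTL2 is an angiomotin, a junction protein that holds YAP1 in the cytoplasm. The gene (ENSG00000114019.14; chromosome 3, 134355874 to 134375479, minus strand) had 5772 counts in the control library, 5930 in that of YA and 4491 in that of OA, or 5439, 5605 and 5041 normalised counts. The 3 libraries lay within 1.2-fold of each other, with fold changes of 1.03 in YA (interval 0.994–1.07) and 0.927 in OA (0.891–0.964). Of its relatives, AMOTL1 was lower after both secretomes, with 12389, 9746 and 8108 counts and fold changes of 0.789 (0.768–0.810) and 0.780 (0.758–0.802). AMOT had 1808, 1703 and 1268 counts and was 0.835-fold in OA (0.777–0.898).

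AJUBA encodes a LIM protein that binds and restrains the LATS kinases at junctions under tension. It lies on chromosome 14 at 22971174 to 22982642, on the minus strand (ENSG00000129474.15). It had 1392 counts in the control library, 1284 in that of YA and 959 in that of OA, with 1312, 1214 and 1076 after normalisation, so that OA was again the lowest library. AJUBA was at 0.925 of control in YA (interval 0.857–0.999) and 0.821 in OA (0.755–0.892). The 1.22-fold lower level in OA is just past the cutoff, and its interval spans it. LIMD1, of the same family, had 633, 578 and 498 counts and differed by less than counting error from control in either secretome. WTIP had 94, 78 and 42 counts and was 0.532-fold in OA (0.361–0.774).

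LATS2 encodes one of the kinases that phosphorylate YAP1 and TAZ. The gene (ENSG00000150457.8; chromosome 13, 20973032 to 21061547, minus strand) had 1188 counts in the control library, 1405 in that of YA and 808 in that of OA, or 1119, 1328 and 907 normalised counts. Control lay between the secretomes, with YA above it and OA below. Against control the ratio was 1.19 for YA (interval 1.10–1.28), just short of the cutoff, and 0.810 in OA (0.740–0.887), just past it. Between the secretomes LATS2 was 1.46-fold higher in YA (1.34–1.60). Its paralogue LATS1 had 1319, 1449 and 1078 counts, with fold changes of 1.10 in YA (1.02–1.19) and 0.974 in OA (0.897–1.06).

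Per kilobase of exon the order of the genes was nearly the same in each library. WWTR1 led with 3398, 2581 and 2468 normalised counts per kilobase in control, YA and OA. CYR61 followed, then CTGF, AMOTL2, YAP1 and TEAD1. CTGF and AMOTL2 overlapped in their counting intervals in OA (880 and 842 per kilobase) but not in control (1126 and 909). AJUBA, LATS2 and ANKRD1 came last. AJUBA stood before LATS2 in control and OA, with overlapping intervals, and after it in YA, where AJUBA in turn overlapped with ANKRD1 (203 and 195 per kilobase). The 9 genes took 0.258% of all counts in control (95% Wilson interval 0.256–0.260), 0.223% in YA (0.221–0.225) and 0.215% in OA (0.213–0.217). Of their 55279, 47499 and 38919 counts, WWTR1 alone had 30334, 22976 and 18500, so that this share largely followed WWTR1.

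In the rest of the CCN family, NOV was higher after both secretomes. NOV, which is known to oppose CTGF in matrix production, had 229 counts in the control library, 445 in that of YA and 315 in that of OA, with fold changes of 1.95 (interval 1.66–2.30) and 1.64 (1.38–1.95). Its direction differed from that of CTGF in OA. WISP3 had 57, 45 and 22 counts. WISP1 and WISP2 had at most 2 counts in any library and give no fold change.

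The 22 Hippo kinases and scaffolds, which include LATS2, differed in both directions. In YA 4 (18.2%, beside 16.4% of all genes) were at least 1.2-fold lower and 0 higher, with a median log2 fold change of -0.06. In OA 7 were higher (31.8%, beside 21.1%) and 4 lower (18.2%, beside 21.5%), with a median of 0.02. In YA against OA 3 were higher (13.6%, beside 23%) and 9 lower (40.9%, beside 21.5%), with a median of -0.13. SAV1, the adaptor that activates the upstream kinases, had 2961 counts in the control library, 2159 in that of YA and 877 in that of OA, and its fold change was 0.731 in YA (interval 0.692–0.773) and 0.353 in OA (0.327–0.381). DCHS1, a giant cadherin that signals to the pathway through its partner FAT4, had 141, 145 and 31 counts, or 0.262-fold in OA (0.172–0.389). WWC1, the scaffold KIBRA, went the other way with 202, 160 and 352 counts, 2.08-fold in OA (1.74–2.48). FAT1, an atypical cadherin, had 5151, 5035 and 7293 counts, 1.69-fold in OA (1.63–1.75).

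**Figure D5:**
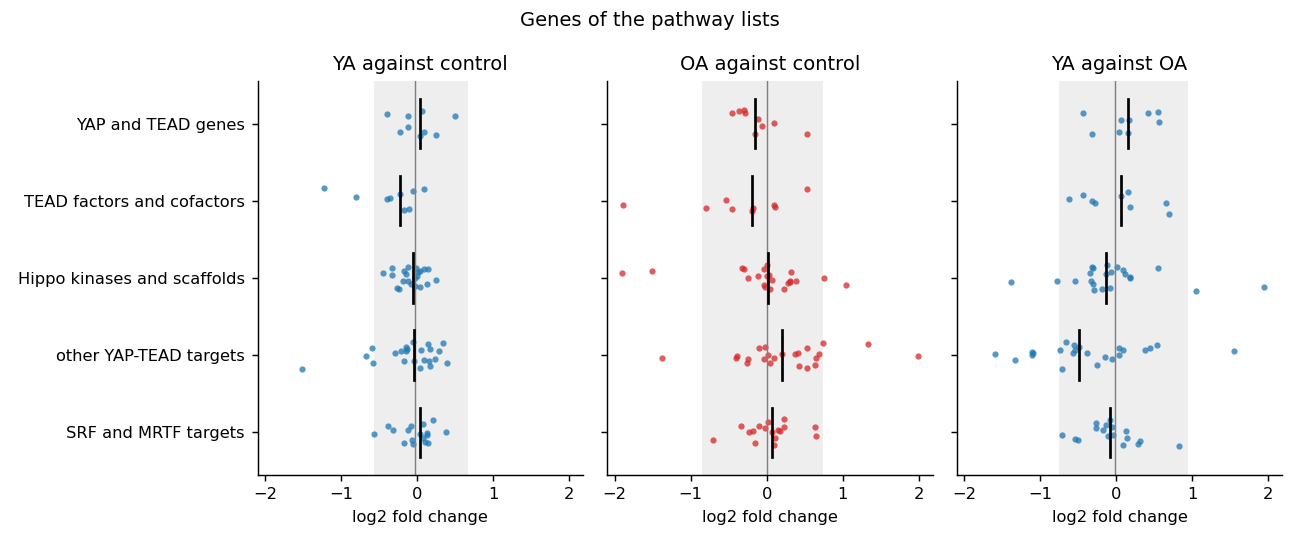
Log2 fold change of each tested gene in the 9 YAP and TEAD genes and in 4 lists, with black bars for list medians, a grey line for the median of all genes tested and a grey band from their 5th to their 95th percentile. In OA the further targets have a median of 0.20, on the other side of all genes from the 9 genes at -0.16.

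A list of 24 further genes that are commonly given as YAP and TEAD targets did not follow CTGF. Of the 23 with enough counts, 3 were at least 1.2-fold higher (13.0%, beside 17.4% of all genes) and 5 lower (21.7%, beside 16.4%) in YA, with a median log2 fold change of -0.04. In OA 11 were higher (47.8%, beside 21.1%) and 3 lower (13.0%, beside 21.5%), with a median of 0.20, while over all genes tested the median was 0.01. In YA against OA 4 were higher (17.4%, beside 23%) and 13 lower (56.5%, beside 21.5%), with a median of -0.48. The genes with the largest changes follow, and the part of YAP and TEAD in them was not tested. AREG, an EGF receptor ligand, had 218 counts in the control library, 286 in that of YA and 731 in that of OA, 3.99-fold in OA (interval 3.43–4.67). ADAMTS1, a secreted metalloprotease, had 351, 232 and 494 counts, 0.663-fold in YA (0.559–0.785) and 1.68-fold in OA (1.46–1.93). IGFBP3, which binds insulin-like growth factors, had 3511, 1231 and 2243 counts, 0.352-fold in YA (0.329–0.375) and 0.761-fold in OA (0.721–0.803). TGFB2, a TGF-beta ligand, had 79, 89 and 25 counts, 0.377-fold in OA (0.230–0.598).

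Serum response factor and its MRTF cofactors, which answer to actin and share several targets with YAP and TEAD, were looked at through 20 genes, 17 of them with enough counts. In YA 1 was higher (5.88%, beside 17.4% of all genes) and 3 lower (17.6%, beside 16.4%), with a median log2 fold change of 0.04. In OA 2 were higher and 2 lower (11.8% each, beside 21.1% and 21.5%), with a median of 0.08. In YA against OA 3 were higher (17.6%, beside 23%) and 5 lower (29.4%, beside 21.5%), with a median of -0.09, and under TMM or total-count scaling 3 were lower. TPM1, a tropomyosin, had 2310, 1557 and 2155 counts in control, YA and OA, 0.676-fold in YA (interval 0.634–0.721). TPM2 had 6396, 5120 and 6295 counts, 0.803-fold in YA (0.774–0.833) and 1.17-fold in OA (1.13–1.21). The LIM protein FHL2 had 414, 536 and 544 counts and was 1.30-fold in YA (1.14–1.48) and 1.57-fold in OA (1.37–1.78). FHL1 had 229, 251 and 300 counts and was 1.56-fold in OA (1.31–1.86).

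Genes with a pattern like that of CTGF, CYR61 or ANKRD1 were sought by the distance between pairs of log2 fold changes, YA and OA against control, over 3 libraries and 11161 other genes whose normalised counts averaged 100 or more. The distance to the nearest gene was 0.0036 for CTGF, 0.0026 for CYR61 and 0.018 for ANKRD1. Nearest to CTGF were SCAPER, ARID5B and SS18L1, nearest to CYR61 were EIF6, LRRC40 and VPS26B, and nearest to ANKRD1 were SLC26A6, ALG9 and MT-ATP8. With 3 libraries such likeness is common: 191 genes lay within a distance of 0.1 of CTGF, 803 of CYR61 and 47 of ANKRD1.

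Marker genes were read beside these results. Of 8 melanocyte and neural crest markers only MITF (1221, 764 and 881 counts in control, YA and OA) and S100B (843, 591 and 550) had enough counts. SOX10 had 0 counts in all libraries, TYR at most 2 and MLANA at most 22, so that the defining pigment genes were nearly absent. The summed level of 10 adipocyte markers came to 2165, 3036 and 2201 normalised counts in control, YA and OA, with ADIPOQ at 1, 0 and 0 counts and LEP at 0 in all libraries. The summed level of 11 fibroblast markers came to 852, 1191 and 1655 in the same order, with COL1A2 at 1, 1 and 2 counts and COL3A1 at 0, 1 and 1. Of the adipocyte markers 5 had enough counts. In YA each of the 5 was past 1.2-fold higher (100%, beside 17.4% of all genes). There the intervals of CFD (0.741–2.14) and PPARG (1.15–1.31) spanned the cutoff. In OA 3 were higher (60%, beside 21.1%) and 1 lower (20%, beside 21.5%). CIDEC passed the minimum only through the secretome libraries, so its call as higher there followed from the filter. PLIN4 had 284, 579 and 321 counts, PPARG 1608, 1964 and 1530, and CIDEC 6, 31 and 36. PPARG took the largest part of the adipocyte sum in each library. FABP4, without enough counts, had 16, 15 and 2. LPL had 353, 583 and 30 counts, so that it was higher in YA (1.66-fold, 1.45–1.90) and far lower in OA (0.101-fold, 0.0673–0.147). Of the fibroblast markers 6 had enough counts. In YA 4 were higher (66.7%, beside 17.4% of all genes) and 1 lower (16.7%, beside 16.4%). In OA 3 were higher (50%, beside 21.1%) and 2 lower (33.3%, beside 21.5%). PDGFRB, at 515, 568 and 334 counts, took the largest part of the sum in control and YA, and COL6A3, at 145, 302 and 886 counts, in OA. DCN had 13, 138 and 24 counts and passed the minimum only through YA, where it was high. The part of these levels in the results above was not tested.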

How the data were processed

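The authors deposited 1 table of unnormalised whole-number counts by gene, in 1 column for each of the 3 A375 libraries. The submitters' processing notes name STAR 2.5.1b, featureCounts, R 3.6.1 and hg38, with no role or order. The annotation release and the use of strand are not given in the sources used here. Counts of overlapping and antisense genes are therefore uncertain.

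Size factors by the median-of-ratios method (DESeq2 1.42.0, R 4.3.3) were 1.06 for both control and YA and 0.891 for OA, and each count was divided by its library's factor. Fold changes carry a 95% Clopper-Pearson interval, and levels an exact Poisson interval. Both cover counting error only, since each group has 1 library. Reads were not collapsed to molecules by identifiers, and the intervals make no allowance for that. Log2 fold changes used a pseudocount of 1 and a minimum mean normalised count of 20. The study's methods name DESeq2 and a cutoff of 1.2, read here as a linear fold change. With 1 library per group, edgeR's quasi-likelihood test and DESeq2's test could not be run. Genes at or under a floor of 3 counts in a library were given no fold change. The procedure was run on simulated counts with Poisson error only, which hold no culture-to-culture variation and so say nothing about it.

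Positions and exon lengths, as the union of exons of a gene, came from GENCODE release 29 on GRCh38, which matched 57433 of 58037 identifiers. Promoter sequences are RefSeq's on GRCh38.p14.

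The genes and lists were chosen with earlier results of these data known. Genes named beyond the 9 were all TEAD, VGLL, angiomotin, Ajuba-family and CCN genes, LATS1, up to 4 genes with the largest change in each other list whose interval lay beyond 1.2-fold, and the 3 genes nearest in pattern to CTGF, CYR61 and ANKRD1. Marker genes, and the genes of the closing section, were named outside that rule. Alternatives were edgeR 4.0.16 TMM and total-count scaling, other minimum means, a pseudocount of 5 and other cutoffs. Intervals were computed with scipy 1.17.1 under Python 3.11.15.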

Additional observations from a re-analysis of the deposited data

How the results depend on the processing

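No log2 fold change of the 9 genes left its counting interval or changed sign under TMM scaling, total-count scaling or a pseudocount of 5, and under the scalings and filters every list median stayed between the medians of its genes' lower and upper interval bounds. Counts of genes past the cutoff moved with the cutoff, by its construction. At 2-fold the 9 genes gave 0 in every comparison and direction. The TEAD factors and cofactors then gave 1 lower in YA, 0 higher and 1 lower in OA, and 0 and 0 in YA against OA. The Hippo genes gave 0 lower in YA, 1 higher and 2 lower in OA, and 2 higher and 1 lower in YA against OA. The further targets gave 0 higher and 1 lower in YA, 2 and 1 in OA, and 1 and 5 in YA against OA, and the genes of serum response factor gave 0 throughout. The share of all genes with a counting interval wholly beyond 1.2-fold was not computed. Counts under that rule therefore cannot be judged against all genes. With the counting interval wholly beyond 1.2-fold, the 9 genes gave 1 higher and 1 lower in YA. They gave 1 higher and 2 lower (WWTR1 and CTGF) in OA, and 3 higher and 1 lower (TEAD1) in YA against OA. The TEAD list gave 0 higher and 3 lower in YA, 1 and 4 in OA, and 1 and 1 in YA against OA. The Hippo list gave 0 and 1 in YA, 2 and 2 in OA, and 3 and 4 in YA against OA. The further targets gave 1 and 4 in YA, 10 and 3 in OA, and 4 and 11 in YA against OA. The genes of serum response factor gave 0 and 2 in YA, 2 and 0 in OA, and 0 and 2 in YA against OA. For filters and scalings only the larger moves are given. Raising the minimum to 100, where fewer genes are tested, the TEAD list had 2 lower in YA and 1 higher in YA against OA, and the serum response factor list 1 lower in OA. With no filter that list had 2 higher and 5 lower in YA and 4 lower in OA. Under TMM and total-count scaling it had 3 lower in YA against OA. No paired analysis was possible because each group has 1 library. Culture-to-culture variation was not measured, and AJUBA and LATS2 in OA have intervals that span the cutoff.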

Other observations

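Among the further targets, genes chosen after their values were seen differed in which library stood out. PTPN14, a phosphatase that holds YAP1 in the cytoplasm, had 7105 counts in the control library, 7291 in that of YA and 4504 in that of OA, and its fold change of 0.755 in OA (interval 0.727–0.784) lay near that of CTGF. NUAK2, a kinase, had 104, 122 and 221 counts, 2.53-fold in OA (2.00–3.23). THBS1, a matricellular protein like CTGF, was higher in YA, with 20085, 25490 and 16503 counts and a fold change of 1.27 (1.25–1.30), and 0.979 in OA (0.959–0.999). MYOF, a membrane-repair protein, was below control in both secretomes, at 0.861-fold in YA (0.843–0.880) and 0.838-fold in OA (0.819–0.857).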
